A study of Pyrus ussuriensis with 15 samples.

Results

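Of the 42812 gene models with the Pbr prefix, 171 were chosen from the read counts as dipping on day 9 alone, at least 4 times lower in each of its 3 libraries than in any of the 12 libraries of the other days. The choice set 3 conditions. The highest day 9 library was at most 0.25 times the lowest of the 12 other libraries, the mean of day 12 was above 0.5 times the mean of day 0, and the lowest of the 12 other libraries held at least 2 CPM, a model's count scaled to a library total of 1000000 counts. Of the 19331 Pbr models that reached 2 CPM in all 12 libraries outside day 9, the members were 0.885%, among 44681 models in the whole table. Because the conditions used day 9 against every other day, and day 12 against day 0, both are given as descriptions without a test.

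The libraries came from adventitious roots of Pyrus ussuriensis Maxim, an Asian pear, and per the labels' protocols the roots were induced from buds subcultured for 25 days. The groups were the sampling days 0, 3, 6, 9 and 12, with 3 libraries each. The rooting medium is given alike for all 15 libraries and held 0.5 mg/L IBA, the auxin indole-3-butyric acid. The tissue label reads adventitious roots on every day, including day 0, and the series title speaks of 4 stages where its design text lists 5 days.

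Adventitious roots form from stem or shoot tissue. Auxin starts the process: cells near the vascular tissue divide again, the divisions organise into a root primordium, and the primordium grows out through the stem as a root. A gene model is the stretch of a genome annotated as a gene. The Pbr models carry coding sequence alone, without untranslated regions, since all of their lengths are multiples of 3. No table used here pairs the models with names or functions, so the members are described by position on the scaffolds of the Pyrus bretschneideri genome, by coding length and by their neighbours, and the presence of root or leaf cells was not checked against marker genes.

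Total counts per library ran from 11953240 in day 9 replicate 2 to 17878524 in day 12 replicate 3. The TMM scaling factors were 0.958, 0.933 and 0.964 in the day 9 libraries and ran from 0.992 to 1.06 in the others. The 10 most abundant models took 6.94% to 7.31% of the counts at day 9 and 4.10% to 6.42% on the other days. The mean coding length weighted by counts was 1274 to 1290 bases at day 9 and 1535 to 1642 bases on the other days, so day 9 reads fell on shorter models. Against the mean of the 12 other libraries, Spearman's rho of a model's level with its length was -0.565, -0.515 and -0.582 in the day 9 libraries (across models, a description). It was taken over the 19160 Pbr models that reached 2 CPM in all libraries outside day 9 and were not members.

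At day 9 the members together held 375, 329.5 and 296 CPM in replicates 1, 2 and 3. By day, the sum of the members averaged 3173 ± 338 CPM (day 0), 3579 ± 241 CPM (day 3), 3248 ± 139 CPM (day 6), 333.5 ± 39.6 CPM (day 9) and 3222 ± 456 CPM (day 12), with the SD over 3 libraries each. The members' summed level was thus about as high on day 12 as on days 0 and 6. The median member averaged 11.2, 13.6, 11.6, 0.978 and 11.8 CPM over the same days. Per length, the median member stood at 7.55, 8.92, 7.87, 0.661 and 7.51 FPKM (CPM per 1000 bases of coding length) on days 0, 3, 6, 9 and 12. The median of the 19331 Pbr models at that level was 18.0, 17.9, 17.9, 16.1 and 17.7 FPKM, so per length the median member also stood lower than the median model before and after the dip. In bulk libraries, fewer cells of a type and less RNA per cell cannot be told apart. Over the 19331 models the day 9 level moved with coding length. The share of members was larger where a same-strand model at 2 CPM lay close downstream. Both are given further on, and the part of RNA quality or of a read bias towards the 3′ end of transcripts in the day 9 libraries was not tested.

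The median member was 11.8-fold lower at day 9 than the mean of the 4 other days, with a range from 4.95-fold to 74.0-fold. On the log2 scale the median difference was -3.56 (quartiles -4.11 and -3.11), against -0.14 (quartiles -0.62 and 0.29) over the 19331 models. Every member was still detected at day 9: none had 0 counts over the 3 day 9 libraries together, and a count of 0 occurred in 1, 1 and 3 members in replicates 1, 2 and 3. The median member had 15, 11 and 14 counts in these libraries, so counting error limits the precision of a single member's day 9 level.

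**Figure D1:**
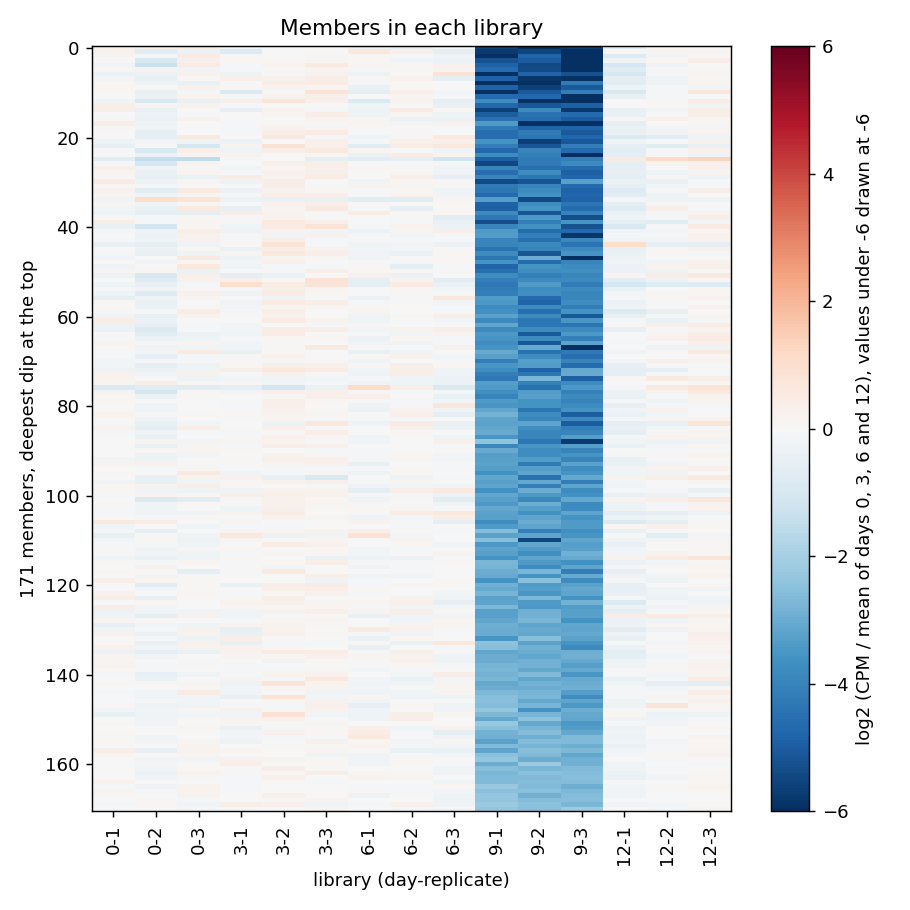
Each row is 1 of the 171 members, from the deepest dip at the top, and each column is 1 of the 15 libraries, labelled by day and replicate; colour gives the log2 of CPM over the member's mean of days 0, 3, 6 and 12. All 3 day 9 columns are blue over their whole height, and the columns of the other days stay close to 0.

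A fall on a single day was unevenly spread over the days. Under the same conditions of depth and level, without the day 12 to day 0 condition, 172 Pbr models were low on day 9 alone, against 1 on day 0, 0 on day 3, 0 on day 6 and 54 on day 12. High on a single day were 24 models on day 0, 0 on day 3, 0 on day 6, 2 on day 9 and 109 on day 12. The 1 model that the day 12 condition took out had a mean of 57.0 CPM at day 0, 1.33 at day 9 and 27.2 at day 12. A smaller fall at day 9 was common: in 4744 of the 19331 models, 24.5%, all 3 day 9 libraries lay below all others, and in 771 models, 3.99%, they were at most 0.5 times the lowest of them.

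The members run up to the threshold without a gap. The ratio of the highest day 9 library to the lowest other library had a median of 0.152 and ran from 0.0343 to 0.2499. It was at most 0.1 in 26 members and between 0.2 and 0.25 in 48, while 68 further models lay between 0.25 and 0.3. Just inside stood the model at scaffold694.0:75470-86941, with 3.46 CPM in its highest day 9 library and 13.8 CPM in its lowest other library. Just outside stood the model at scaffold33.0:1280513-1283407, with 0.714 and 2.85 CPM. At the 2 CPM limit, the model at scaffold131.0:787404-787767 was inside with 2.02 CPM in its lowest other library, and the model at scaffold49.2:211893-212072 was outside with 1.96 CPM.

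When models were chosen on only a pair of the day 9 libraries, the choice did not use the library left out. It did use the lowest other library, with which the library left out was then compared. The models that met the limit in the library left out were the 171 members each time by definition, so the shares are descriptions. The part of a bias common to the 3 day 9 libraries was not tested. Without replicate 1 the conditions took 234 models, of which 171 (73.1%) were at most 0.25 times the lowest other library in replicate 1, against 1.15% of the 19331 models. Without replicate 2 they took 191 models, of which 171 (89.5%) met the limit in replicate 2, against 1.63%. Without replicate 3 they took 182 models, of which 171 (94.0%) met it in replicate 3, against 1.61%. Each of the models so chosen was below its lowest other library in the library left out, up to a ratio of 0.715 in replicate 1.

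Pbr009957.1 had the deepest dip among members with at least 5 CPM in every library outside day 9. It lies on the plus strand at scaffold165.1:68127-69714 and has a coding length of 1479 bases. Its libraries held 12.6, 5.57 and 20.1 CPM on day 0, 13.5, 16.7 and 21.0 on day 3, 16.1, 14.8 and 17.0 on day 6, 0.500, 0.335 and 0.0629 on day 9, and 7.10, 12.5 and 14.3 on day 12. The lowest library outside day 9 was day 0 replicate 2. That the 3 libraries of day 9 lay below all others was set by the choice. The mean was 0.299 ± 0.221 CPM at day 9 (SD, n = 3), 47.7-fold lower than the mean of the other days. That day 9 level rests on 7, 4 and 1 counts, and the exact Poisson 95% interval of their sum, 12 counts, puts the fold between 28.5 and 96.3. This interval covers counting error only, and does not allow for the picking of the member by its deep dip.

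Pbr022584.1, with the next deepest dip at that level, lies on the minus strand at scaffold341.0:462334-465088 and has a coding length of 1020 bases. Its libraries held 9.24, 9.26 and 14.1 CPM on day 0, 9.60, 12.2 and 14.2 on day 3, 9.49, 11.5 and 20.6 on day 6, 0.0714, 0.418 and 0.314 on day 9, and 5.80, 11.2 and 13.3 on day 12. Day 6 replicate 3 was the highest and day 12 replicate 1 the lowest outside day 9. The mean was 0.268 ± 0.178 CPM at day 9 (SD, n = 3), 43.7-fold lower than on the other days. Its 11 day 9 counts allow a fold between 24.9 and 89.2 by the same Poisson interval.

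The most abundant member, at scaffold422.0:136875-142942 on the minus strand with 3171 coding bases, gives a firmer day 9 level. It held 13.9, 10.3 and 12.0 CPM at day 9, and between 110.0 and 159.8 CPM in the 12 other libraries, a fold of 11.4. Next came the model at scaffold748.0:157144-163996, with 18.8, 18.7 and 16.2 CPM at day 9 and 90.6 to 124 CPM in the 12 others. The model at scaffold303.0:203511-207917 held 19.8, 12.6 and 13.5 CPM at day 9, with means of 90.7 at day 0 and 97.3 at day 12. In these 3 members the replicates of a day differed far less than day 9 differed from the other days, a distance that the choice had required.

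**Figure D2:**
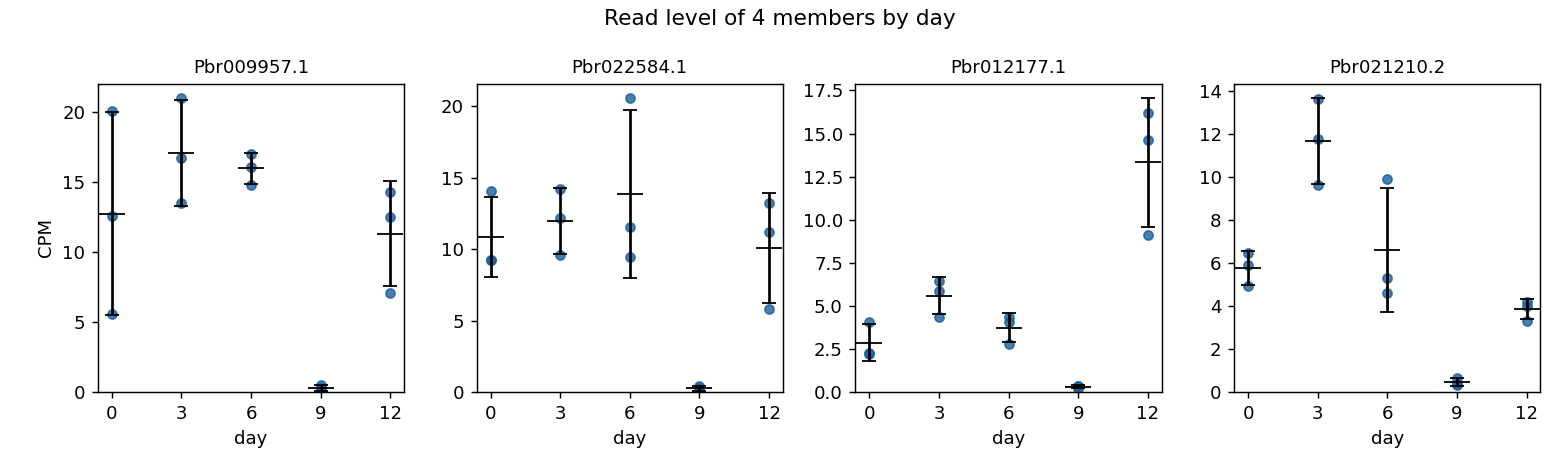
Each panel shows 1 member, with CPM on the vertical axis from 0 and the day on the horizontal axis; dots are libraries, and the bar and whiskers are the mean and SD of 3 libraries. In all 4 members the day 9 dots lie below 0.7 CPM, under every other dot, and Pbr012177.1 is highest at day 12 whereas Pbr021210.2 is highest at day 3.

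Outside day 9 the median spread of the members over libraries was close to that of the 19331 models, though the levels differed, with a median of 11.2 CPM in the members and 21.6 CPM in the 19331 models at day 0. The ratio of the highest to the lowest of the 12 other libraries had a median of 1.81 in the members and 1.82 in the 19331 models, and the coefficient of variation over these libraries had a median of 17.5% and 18.2%. Its upper quartile was 23.1% in the members and 30.0% in the 19331 models. The choice left out models with a library outside day 9 near the day 9 level. Of the 4 other days, day 3 had the highest mean in 97 members (56.7%, against 23.2% of the 19331 models), day 0 in 29, day 6 in 23 and day 12 in 22. Day 12 had the lowest mean of the 4 in 71 members (41.5%, against 34.4% of the 19331 models), day 0 in 49 (28.7%, against 18.5%), day 6 in 39 (22.8%, against 21.5%) and day 3 in 12 (7.02%, against 25.6%). The ratio of the day 12 mean to the day 0 mean had a median of 0.974 and ran from 0.538, close to the limit of 0.5 that the choice set, to 4.63.

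Comparisons between days that the choice did not fix asked whether the members changed before the dip and whether they came back at the same level. These were tested with edgeR's quasi-likelihood test on the counts of 29134 models in all 15 libraries, with Benjamini-Hochberg adjustment over all of them and a false discovery rate of 0.05. All 171 members passed the filter on low counts. The conditions on level bound each library outside day 9 from below, so the members could not be near 0 on any of these days. No label says that replicates were separate cultures; the p-values cover the spread among these libraries only, and that spread may be technical.

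Day 3 against day 0, the first step after the start of root induction, showed 3 members higher and 0 lower. Among all models tested, 4.47% were called higher and 4.9% lower, against 1.75% and 0% of the members. The median fitted log2 change was 0.18 in the members and -0.01 in all models, and it was above 0 in 131 members (76.6%) against 48.9% of all models. Without day 0 replicate 2, the day 0 library in which the members were lowest, their median was 0.09. At an unadjusted p under 0.05 there were 22 of the 171 members, against 7451 of the 29134 models. DESeq2 called 12 members higher and 1 lower, against 2025 and 2136 of all models. The 3 calls fell to 0 without day 0 replicate 2 or without day 3 replicate 2, and to 1 without day 0 replicate 3 or day 3 replicate 3. Over all models the higher calls fell as well, from 1301 to 523, 585, 710 and 839 in these fits, in the same order.

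Day 6 against day 0 showed 1 member higher and 0 lower, against 5.3% and 4.26% of all models. The median was 0.07 in the members and -0.00 in all models, and turned to -0.03 in the members without day 0 replicate 2. An unadjusted p under 0.05 was reached by 14 of the 171 members, against 7463 of the 29134 models. DESeq2 called 5 members higher and 3 lower, against 2371 and 1713 of all models. The only member called was at scaffold58.0:766005-776150 (3483 coding bases), with a log2 change of 0.58 that was called in 1 of the 6 fits that left out 1 library. It held 20.3, 30.1 and 32.7 CPM at day 6, against 20.1, 18.9 and 18.7 CPM at day 0, so that day 6 replicate 1 was barely above the day 0 libraries.

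Day 12 against day 6, the sampled days on each side of the dip, showed 3 members higher and 1 lower, against 10.6% and 10.7% of all models. The median was -0.06 in the members and -0.01 in all models, and 0.02 in the members without day 12 replicate 1. Of the 171 members, 12 had an unadjusted p under 0.05, against 9610 of the 29134 models. DESeq2 called 5 members higher and 2 lower, against 3447 and 3697 of all models. Of the 4 calls, 2 held in all 6 fits that left out 1 library, while that at scaffold155.0:556251-566158 was lost in 3 of them and that at scaffold86.0:421-900 in 2. For the other members no change was detected, which does not show that they returned to the same level.

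Day 12 against day 3 showed 2 members higher and 8 lower, against 14.7% and 13.3% of all models. The median was -0.15 in the members and -0.00 in all models, with 43 members (25.1%) above 0 against 50% of all models. An unadjusted p under 0.05 was reached by 23 of the 171 members, against 11353 of the 29134 models. The members' median was -0.07 without day 12 replicate 1 and -0.26 without day 12 replicate 3. The 8 lower calls fell to 3 when replicate 2 or 3 of day 3, or replicate 1 or 2 of day 12, was left out. The 2 higher calls fell to 1 when replicate 2 of day 3, or replicate 2 or 3 of day 12, was left out. Over all models the lower calls fell from 3862 to between 2653 and 3099 in the fits with 3 lower members. The higher calls over all models fell from 4290 to between 3123 and 3491 in the fits with 1 higher member. In a fit on these 2 days alone the calls were 7 higher and 15 lower, against 5393 and 5398 of the 27723 models tested. Day 3 libraries enter both this comparison and that of day 3 with day 0.

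**Figure D3:**
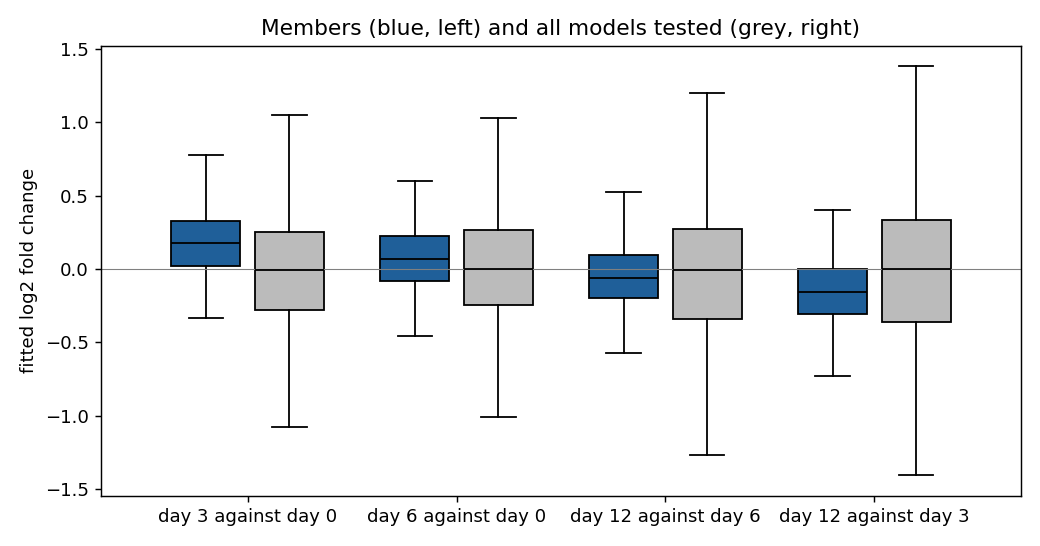
Boxes give the median and quartiles of the fitted log2 fold change in 4 comparisons of days, for the 171 members (blue, left of each pair) and for the 29134 models tested (grey, right); whiskers reach the last value within 1.5 times the box height, and points beyond are not drawn. The members' median is 0.18 for day 3 against day 0 and -0.15 for day 12 against day 3, with boxes narrower than those of all models.

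The 4 comparisons made 18 calls in 13 members, and 5 calls in 3 members held in each of the 6 fits that left out 1 library of the 2 days compared. Those 3 members are Pbr012177.1, Pbr021210.2 and the model on scaffold58.0. Pbr012177.1, on the plus strand at scaffold19.0:783260-784817 with 642 coding bases, held 4.10, 2.30 and 2.23 CPM on day 0, 5.90, 6.47 and 4.39 on day 3, 4.10, 4.34 and 2.77 on day 6, 0.214, 0.335 and 0.377 on day 9, and 9.12, 14.6 and 16.2 on day 12. It thus came back above its earlier level, with no overlap between the libraries of day 12 and those of any earlier day. The log2 change was 1.84 ± 0.291 (SE) for day 12 against day 6, with an adjusted p of 0.000585 in edgeR's quasi-likelihood test, and between 0.000604 and 0.00413 with 1 library left out. For day 12 against day 3 it was 1.28 ± 0.284 (SE), with an adjusted p of 0.00462 in the same edgeR test, and between 0.00336 and 0.0243 with 1 library left out.

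Pbr021210.2, on the plus strand at scaffold317.0:63742-65986 with 1080 coding bases, held 5.92, 4.94 and 6.48 CPM on day 0, 13.6, 9.64 and 11.8 on day 3, 4.63, 9.92 and 5.31 on day 6, 0.357, 0.669 and 0.377 on day 9, and 3.32, 4.2 and 4.03 on day 12. Its day 3 libraries lay above those of day 0 and day 12, and day 6 replicate 2 reached into their range. For day 3 against day 0 the log2 change was 1.04 ± 0.271 (SE) with an adjusted p of 0.0319 in edgeR, a call lost in all 6 fits that left out 1 library, where it ran from 0.0515 to 0.111. For day 12 against day 3 the log2 change was -1.57 ± 0.276 (SE), with an adjusted p of 0.000996 in edgeR, which stayed between 0.00179 and 0.00697 with 1 library left out.

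The model at scaffold58.0:766005-776150 was lower at day 12 than at day 6 and day 3. It held 13.8, 14.7 and 17.7 CPM at day 12, against 20.3, 30.1 and 32.7 at day 6 and 25.9, 29.9 and 22.4 at day 3, without overlap. The log2 change was -0.84 against day 6 and -0.73 against day 3, with edgeR adjusted p-values of 0.00316 and 0.00591. At day 9 it held 2.36, 1.76 and 2.45 CPM, about 10.1-fold below the mean of the other days.

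The share of models that were members was highest among the longest models and lowest at middle lengths. Their coding length had a median of 1938 bases (quartiles 865.5 and 3124.5), against 1242 (783 and 1881) for the 19331 models, with 50 members over 3000 bases and 32 under 600. The longest, at scaffold166.0:294747-323476, had 11622 coding bases and held 0, 0.167 and 0.314 CPM at day 9, against means of 5.06, 6.05, 5.32 and 5.64 CPM on days 0, 3, 6 and 12. The shortest, at scaffold382.0:289632-290429, had 150 coding bases and held 0.357, 0.0837 and 0.126 CPM at day 9, against means of 3.59, 4.30, 4.84 and 4.31 on days 0, 3, 6 and 12. Day 9 was thus 34.4-fold below the other days in the longest member and 22.6-fold in the shortest.

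With the 19331 models in 10 classes of nearly equal number by length, the shortest class (150 to 474 bases) held 22 members, or 1.13% of its models, and the next (477 to 687 bases) 16, or 0.821%. The 5 classes between 690 and 1713 bases held 7 or 8 each, from 0.363% to 0.415%. The class from 1716 to 2100 bases held 15 (0.775%), that from 2103 to 2787 bases 22 (1.15%), and the longest class (2790 to 16572 bases) held 58, or 3.00%. Over all models the day 9 difference moved steadily with length, with a class median of log2 0.47 in the shortest class and -0.87 in the longest. Across the 19331 models, Spearman's rho between the log2 day 9 difference and length was -0.56. Among the 171 members it was 0.13. The choice bounded their dips and so shaped this value, which cannot show how the dip moved with length. These are correlations across models, which share the same libraries and are not replicates.

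The length trend of day 9 moved with the members' count. When a smooth trend on length was taken out of each library, the same conditions chose 131 models, of which 116 were members. The 55 members lost had a median length of 3120 bases, and 31 of them were over 3000; the 15 models gained had a median of 417 bases. The longest class then held 21 models and the shortest 29. The part of the length trend in a single long member's fall was not tested.

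**Figure D4:**
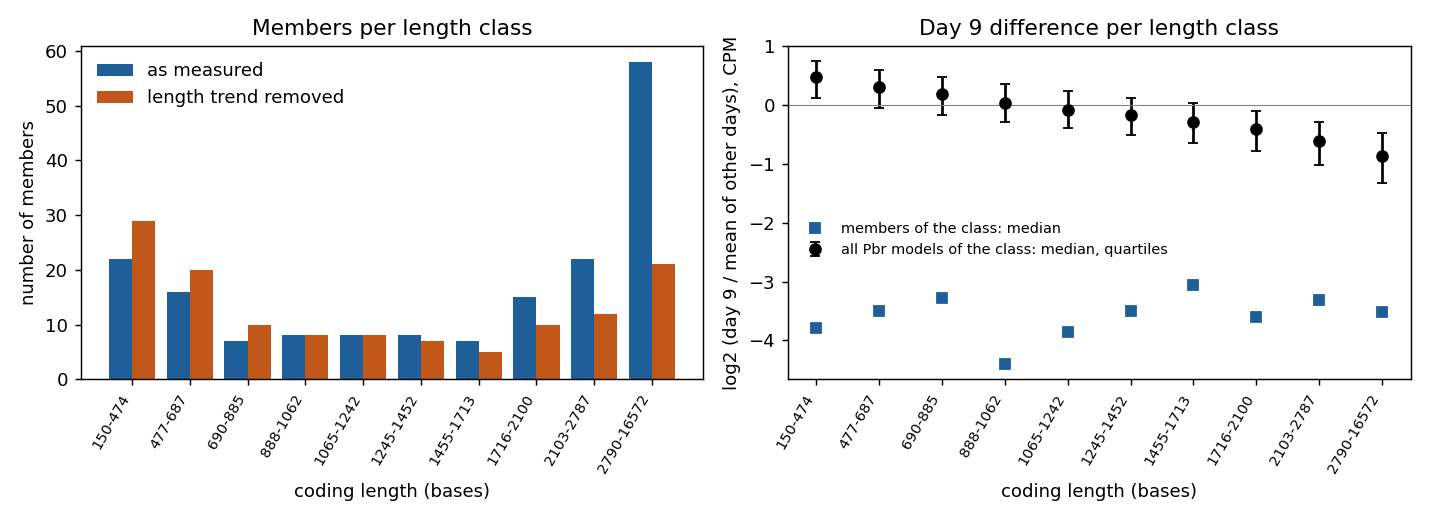
Left, the number of members in each of 10 length classes, as measured (blue) and after a trend on length was removed from each library (orange). Right, the log2 of day 9 CPM over the mean of the other days for all Pbr models of a class (black dots with quartiles) and for its members (blue squares, median); the members' count in the longest class is 58 as measured and 21 with the trend removed, and the black dots run from 0.47 to -0.87.

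Within a day the members also shifted with the library. In day 12 the members' median log2 deviation from the other libraries of the day was -0.33, 0.03 and 0.31 in replicates 1, 2 and 3. Over the 19160 Pbr models at 2 CPM outside day 9 that were not members, Spearman's rho of the deviation with length was -0.40, -0.10 and 0.46 in the same libraries. In day 9 the deviation was 0.22, 0.10 and -0.22, with a rho of 0.075, 0.060 and -0.155. On 4 of the 5 days the library in which the members were lowest also had the lowest rho with length. The part of these shifts in the members' values was not tested.

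Members were spread over the genome. They lay on 151 scaffolds, with at most 3 on one, no pair of members was adjacent, and the closest pair was 11197 bases apart. None overlapped another model, and 88 (51.5%) were on the plus strand. Of the members, 39 (22.8%) were in 1 block without introns, against 15.7% of the 19331 models, and the intron bases had a median of 1253 against 1375. A split member shared both its length and its span with another model in 6 cases. Whether these models are copies was not tested, since no sequences were used here, and the share among other models was not counted. The use of strand in the counting is not given in the sources used here.

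Many members lay just upstream of another model on their own strand, a feature the choice did not use. Of the 150 members with another model downstream on the scaffold (past the member's 3′ end), that model was on the same strand in 112, or 74.7%, against 50.6% of 18697 other Pbr models. It was on the same strand, reached 2 CPM in all 12 libraries outside day 9 and began within 2000 bases in 50 members, or 33.3%, against 8.19%. On the upstream side the shares lay close together: the neighbour was on the same strand in 52.8% of members and 50.9% of other models, and a same-strand model at 2 CPM lay within 2000 bases in 6.92% of members and 8.54% of others. Shares are set side by side here as descriptions, with no test.

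With a same-strand next model at 2 CPM, the share of members was larger the closer that model lay. Of the 68 Pbr models with a same-strand model at 2 CPM within 200 bases downstream, 17 were members, or 25%. The share was 13.2% (7 of 53) at 201 to 500 bases, 2.05% at 501 to 1000, 1.70% at 1001 to 2000, 1.25% at 2001 to 5000, 0.542% at 5001 to 10000 and 0.430% beyond. With a same-strand next model under 2 CPM, 0 of 35 models within 200 bases, 1 of 60 at 201 to 500 and 0 of 273 at 501 to 1000 bases were members. Farther on, that share was 1.11% (9 of 813) at 1001 to 2000 and 0.629% at 2001 to 5000 bases. It was 0.463% at 5001 to 10000 and 0.908% beyond, so the low share held for short distances only. With the next model on the opposite strand the share was 0 of 61 within 200 bases, 0 of 708 at 201 to 500, 0.145% at 501 to 1000, 0.306% at 1001 to 2000 and 0.739% at 2001 to 5000 bases. There it was 0.570% at 5001 to 10000 bases and 0.646% beyond. The difference was present at each length: within 2000 bases of a same-strand model at 2 CPM, 3.81% of the models in the 3 shortest classes, 1.75% in the 4 middle classes and 4.35% in the 3 longest were members, against 0.316%, 0.0817% and 0.942% where the next model was on the opposite strand at any distance.

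The next model mostly stayed closer to its level of the other days than the member, which was chosen for its fall. In the 50 near pairs the member's median log2 day 9 difference was -3.87 and that of the next model -0.34 (range -5.38 to 0.96), and the next model's was the higher in 49 pairs. The next model was below -1 in 10 pairs and above 0 in 13. Summed over the 50 pairs, the members held 77.1, 69.1 and 62.4 CPM at day 9 and 684 to 1031 CPM in the other libraries, whereas the next models held 1310, 1316 and 1344 CPM at day 9 and 1585 to 1757 CPM in the others.

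On the other days the pairs were close in level per length. The FPKM of the 2 models differed by less than 2-fold in 33 of 50 pairs (66%), against 37.6% of 1531 such pairs that begin with a model other than a member. At day 9 this held for 1 pair of members, and the median log2 ratio of the next model to the member was 4.0, where it was 0.66 on the other days; since the members were chosen for a low day 9, the day 9 values are a description of the choice. Spearman's rho between the FPKM of the 2 models over the 50 pairs was 0.728 at day 9 and 0.765 on the other days, and over the 1531 pairs it was 0.0747 and 0.120, across models that share libraries. The 2 sets of pairs were not matched on distance. Of the 68 pairs within 200 bases 17 began with a member, and of the 1119 at 1001 to 2000 bases 19 did.

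The closest pair lay on the plus strand of scaffold230.0. The member, at 335990 to 337327 with 1338 coding bases, stood at 5.98, 3.56 and 3.71 FPKM in the day 9 libraries, against 43.0 to 61.9 FPKM in the 12 others. The next model began 4 bases on, at 337332 to 340618, and stood at 59.4, 56.2 and 58.5 FPKM at day 9, against 55.6 to 63.9 FPKM in the others. The 2 models thus stood at a similar level on days 0, 3, 6 and 12 and far apart at day 9.

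The 17 pairs within 200 bases differed in the next model's day 9 level: its log2 difference was below -1 in 4, between -1 and 0 in 10 and above 0 in 3. On scaffold166.0 the model 156 bases past the longest member was almost as low at day 9 as that member, with log2 differences of -4.52 and -5.10. On scaffold457.0 the model 148 bases past the member at 73645 to 75973 was lower at day 9 too, with -2.11, against -4.27 in the member. Other close pairs had a steadier next model. On scaffold998.0 the member at 120560 to 122761 stood at 0.519, 0.342 and 0.143 FPKM at day 9, with a mean of 4.84 on the other days, and the next model, 43 bases on, averaged 8.0 FPKM at day 9 and 7.77 on the other days. On scaffold288.1 the member at 52817 to 57338 averaged 3.31 FPKM at day 9 and 22.0 on the other days, while the next model, 46 bases on, averaged 62.6 and 35.0 FPKM, so that it was higher at day 9. For Pbr022584.1, described above, the next model on the minus strand (scaffold341.0:455724-462301, 32 bases on) stood at 11, 13.4 and 11.7 FPKM at day 9 and averaged 21.1 on the other days, where the member averaged 0.263 and 11.5 FPKM. Whether such a pair of models is 1 transcription unit annotated as 2 genes, whose upstream part lost reads in the day 9 libraries through a bias towards the 3′ end, was not tested.

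**Figure D5:**
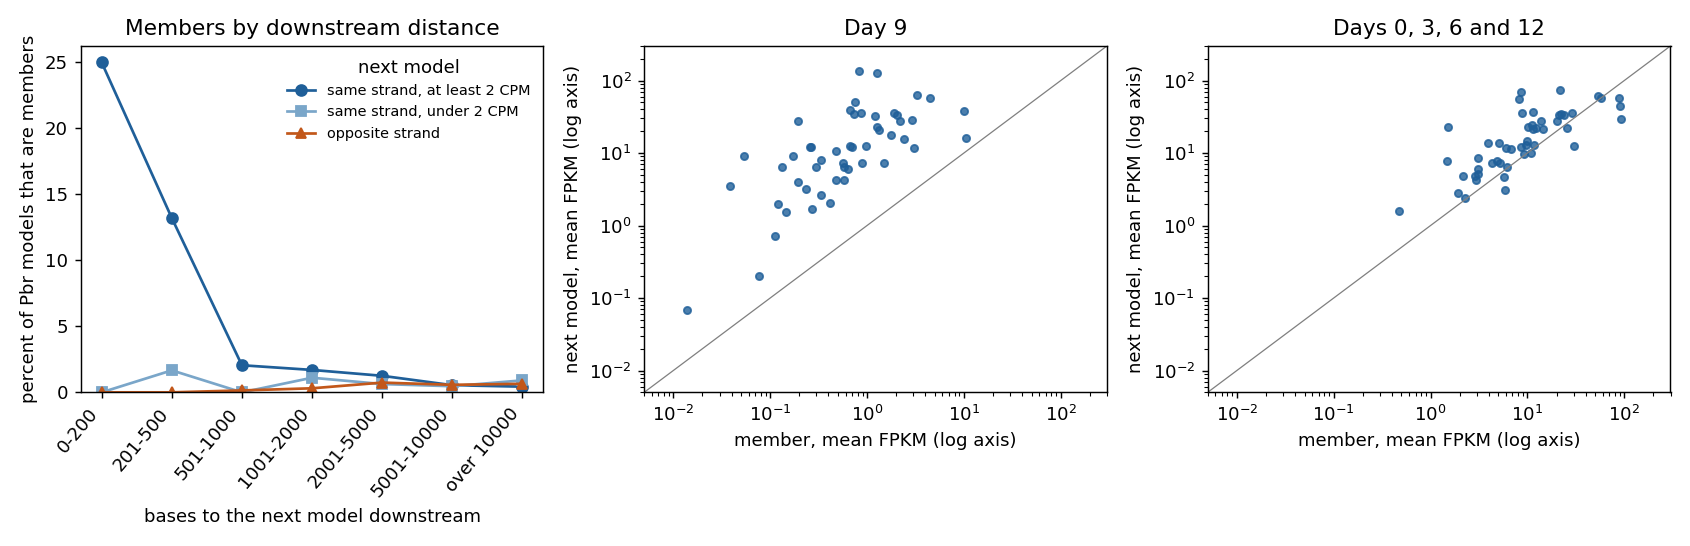
Left, the percentage of Pbr models that are members, by bases to the next model downstream, for a next model on the same strand with at least 2 CPM (dark blue circles), on the same strand under 2 CPM (light blue squares) and on the opposite strand (orange triangles). Middle and right, mean FPKM of the next model against that of the member in the 50 near pairs at day 9 and on the other days, with the line of equal level; within 200 bases the share of members is 25%, and the points lie closer to the line on the other days than at day 9, where all are above it.

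Close downstream models were not seen for all members. The other 121 members had no same-strand model at 2 CPM within 2000 bases downstream, and their median log2 day 9 difference was -3.43, with a median length of 2145 bases and 36 members over 3000. They include members last on their scaffold, since only 150 of the 171 members had any model downstream on it. Models without the Pbr prefix were left out of the choice. Of the 903 that reached 2 CPM outside day 9, 36 (3.99%) met the conditions, with a median log2 day 9 difference of -4.10 and a median length of 1053.5 bases, against 1178 bases in the 903. Where they had a downstream neighbour, it was on the same strand in 26 of 32 (81.2%), against 49.1% of the other models without the prefix, and an upstream neighbour was on the same strand in 10 of 35 (28.6%), against 49.6%.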

How the data were processed

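For the 15 libraries, the series' design text gives Pyrus bretschneideri as the reference species, and the submitters' processing notes list HISAT with no version. Neither the counting program nor its handling of strand is stated (not given in the sources used here). The deposited table gives whole-number read counts per gene model that are not normalized, per the file headers, and FPKM values, which the authors computed from those counts. For the members, all 2560 FPKM values above 0 were recovered from counts, length and column sums within a relative tolerance of 1e-04. All columns of values were mapped to samples by their titles.

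From the counts, CPM on the column sum chose the members. Counts were tested with edgeR 4.0.16 under R 4.3.3 (filterByExpr by day, TMM, glmQLFit and glmQLFTest, day as the only factor, 10 residual degrees of freedom). The same test was also run on simulated counts without a length trend, and its outcome there is not given here. DESeq2 1.42.0, other scalings, filters and fits, and the removal of a natural spline (5 degrees of freedom) on log2 length were alternatives. An SE is the size of a log2 change over the square root of its F value. The members, lists and tests were chosen with earlier results of these data known. The IDs named are the 2 members with the lowest ratio of day 9 to the other days among those with at least 5 CPM elsewhere, and the 2 with the largest called rise in the comparisons of day 3 and day 6 with day 0 and of day 12 with day 6; others are given by position, chosen after their values were seen. Planned lists by gene description and cell type markers were not tested, since no descriptions were used here.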

Additional observations from a re-analysis of the deposited data

How the results depend on the processing

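The number of members was 171, and 290 with the threshold loosened to 1 part in 3 and 362 with day means in place of single libraries; these larger sets held all 171. It stayed within 1.5 times of 171 under the other choices: 155 with TMM-scaled CPM, 123 at 1 part in 5, 196 and 116 with minima of 1 and 5 CPM, 131 with the length trend removed, and 170 to 234 with 1 library left out.

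The small counts of members called moved with the fit, and the cause was not tested. With DESeq2 they were 12 higher and 1 lower for day 3 against day 0, 5 and 3 for day 6 against day 0, 5 and 2 for day 12 against day 6, and 5 higher for day 12 against day 3. In the last of these, DESeq2 called 4679 of all 29134 models higher. Without the day 9 libraries they were 6 higher for day 3 against day 0, 1 lower for day 6 against day 0 and 4 higher for day 12 against day 3. Of the 28860 models tested in that fit, 1039, 897 and 3886 were called in the same comparisons and directions. In fits on the 2 days compared they were 7 higher for day 3 against day 0, 0 higher for day 6 against day 0, where 25 of all models were called in place of 2785, and 7 higher and 15 lower for day 12 against day 3. The fit for day 3 against day 0 called 1114 of 27517 models higher. With the length trend removed, 3 were higher for day 6 against day 0 and 5 for day 12 against day 3, against 1740 and 4240 of 29134 models. With upper-quartile scaling, 0 were higher and 1 lower for day 6 against day 0, against 1361 and 1490 of 29134 models. Without a filter 1 was higher for day 12 against day 3, against 4075 of 37533 models. With the replicate block, 0 members were higher for day 6 against day 0, against 1360 of 29134 models, and the other 7 counts of members were the same. No shared deviation was seen between same-numbered libraries. Over 30 such pairs from different days, the correlations of their deviations from the day means lay between -0.0816 and 0.166. Their median was -0.00122, against 0.000371 for pairs with different numbers. These values cannot tell whether same-numbered libraries shared a culture or a batch.

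With 1 library left out, the counts ran from 0 to 3 higher and 0 to 1 lower for day 3 against day 0, 0 to 3 higher and 0 to 1 lower for day 6 against day 0, 2 to 3 higher and 1 to 4 lower for day 12 against day 6, and 1 to 3 higher and 3 to 8 lower for day 12 against day 3. Calls over all models ran from 1004 to 2448 for day 3 against day 0 (2728 with all libraries, 4161 with DESeq2), 1110 to 4382 for day 6 against day 0, 4161 to 7075 for day 12 against day 6 (6228 with all libraries, 3798 in the fit on those 2 days) and 5776 to 6486 for day 12 against day 3 (8152 with all libraries). Day 9 counts of 11 to 15 per median member limit what single members show there.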
